A study of Drosophila melanogaster with 2 samples.

Results

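The sites described here are the peaks on chromosomes 4 and Y in a ranked peak list from anti-GFP ChIP-seq of Drosophila melanogaster embryos. ChIP-seq recovers the DNA bound by a tagged protein with an antibody and sequences it, and a peak is an interval in which recovered fragments pile up. The embryos were whole organisms of strain CG31224-GFP, aged 0 to 24 h, carrying an insertion that expresses a CG31224-eGFP fusion. The series has 1 group of 2 biological replicates, so no second genotype, treatment or age is compared. Chromatin was sonicated, with a fragment size range of 200 to 800 bp. The sex of the embryos was not collected, so the amount of Y DNA in each sample is unknown. Of the 99800 peaks of the series-level list made from both replicates, 53 lay on chromosome 4 and 77 on Y, and all 130 were taken with no signal threshold. The 5 large chromosome arms (2L, 2R, 3L, 3R and X) held 98770 and the unplaced scaffolds 900. Coordinates are those of dm6.

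Chromosome 4 of the fly is a very small, mostly heterochromatic chromosome whose genes are nevertheless transcribed; several encode regulators of development. The Y chromosome is almost wholly heterochromatic, is carried by males, and holds a handful of fertility genes that work in the male germline among satellite DNA, transposons and multicopy gene clusters. Repeats matter for ChIP-seq because a read that matches several copies cannot be placed at one of them.

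To show what DNA lies under the strongest sites, 100 bases around the summit, the highest point of the peak, are given for the 5 chromosome 4 peaks and the 3 Y peaks with the highest signal. Capitals mark matches on either strand to the GAGA factor core GAGAG, to CACACA and to CGATA. Those are the ones found here among the short elements searched for, apart from GATA and the E-box, which are too frequent to mark. The sequences are the plus strand of the RefSeq copy of the dm6 assembly.
PlexA promoter, chr4:1027221-1027320: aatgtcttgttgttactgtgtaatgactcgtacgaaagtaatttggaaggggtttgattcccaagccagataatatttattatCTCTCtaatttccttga
intergenic, upstream of lncRNA:CR43437, chr4:424778-424877: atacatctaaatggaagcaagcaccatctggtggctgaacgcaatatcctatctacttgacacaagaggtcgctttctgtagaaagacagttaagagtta
HeT-A, chr4:1280610-1280709: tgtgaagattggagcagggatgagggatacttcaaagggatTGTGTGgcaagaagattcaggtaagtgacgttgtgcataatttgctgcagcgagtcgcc
zfh2 intron, chr4:528037-528136: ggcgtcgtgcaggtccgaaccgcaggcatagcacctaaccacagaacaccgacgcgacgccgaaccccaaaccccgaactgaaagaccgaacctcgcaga
Asator intron, chr4:486529-486628: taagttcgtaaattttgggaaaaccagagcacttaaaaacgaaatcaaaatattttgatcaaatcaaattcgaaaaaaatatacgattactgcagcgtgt
intergenic, near Su(Ste):CR42432, chrY:975849-975948: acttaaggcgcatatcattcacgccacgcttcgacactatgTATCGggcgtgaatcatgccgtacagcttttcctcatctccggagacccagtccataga
intergenic, opus element, chrY:787695-787794: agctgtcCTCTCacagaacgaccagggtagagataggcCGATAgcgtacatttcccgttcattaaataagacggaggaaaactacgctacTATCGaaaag
intergenic, near Su(Ste):CR42422, chrY:874451-874550: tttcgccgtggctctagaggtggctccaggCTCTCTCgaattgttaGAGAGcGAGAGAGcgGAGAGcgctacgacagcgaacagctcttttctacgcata

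Peaks were sparse on both chromosomes. There were 39.3 ranked peaks per Mb on chromosome 4 and 21.0 per Mb on Y, against 745 per Mb over the 5 arms, where the lowest arm had 709 and the highest 786. The density was thus 5.28% of that of the arms on chromosome 4 and 2.82% on Y. Each replicate's own ranked list had the same order against the arms: replicate 1 held 73 peaks on chromosome 4 and 22 on Y (54.2 and 5.999 per Mb, against 439 per Mb over the arms), and replicate 2 held 35 and 30 (26.0 and 8.18 per Mb, against 451). In both replicates chromosome 4 held more peaks than Y, whereas the series-level list held more on Y. Counting known bases only, the densities were 39.8 per Mb on chromosome 4 and 22.6 per Mb on Y, against 746 per Mb over the arms. Whether reads in repeats were kept when the lists were made was not tested.

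Signal values are the authors' score for each peak, on a scale that the sources used here do not give. On chromosome 4 they had a median of 18.8 and ran between 3.37 and 251, and on Y they had a median of 12.6 and ran between 2.78 and 45.5; the arms had a median of 17.8, with 16.3 on the lowest arm and 18.3 on the highest. A chromosome 4 peak was therefore about as strong as one on the arms, with a ratio of medians of 1.06, while the ratio for Y was 0.709. The irreproducible discovery rate (IDR) estimates how likely a peak is to be irreproducible between the peak sets that were compared. Each replicate's own lists also carry such scores, and the labels of the lists do not say which sets were compared. A score is therefore not read as agreement between the replicates. The lowest deposited score, 20, stands for an IDR of 89.5%. That lowest score was held by 25 of 53 chromosome 4 peaks (47.2%) and 67 of 77 Y peaks (87.0%), against 45.5% of the peaks of the arms.

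Most of these sites were called in a single replicate or in neither. On chromosome 4, 31 of 53 members overlapped a ranked peak of replicate 1 (58.5%, 95% Wilson interval 45.1 to 70.7, which covers counting of peaks only), against 56.1% of the peaks of the arms; in the other series-level ranked list the share lay below that of the arms (47.7%, against 52.5%). For replicate 2 it was 17 of 53 (32.1%, 21.1 to 45.5), against 58.2% of the peaks of the arms, below every single arm (52.9% or more). Both replicates held 8 of the 53 (15.1%), against 33.2% of the peaks of the arms, and neither held 13. On Y, 18 of 77 members overlapped a peak of replicate 1 (23.4%) and 22 one of replicate 2 (28.6%), 3 were in both (3.90%), and 40 were in neither (52.0%, against 18.9% over the arms). The lists of the replicates also met each other rarely: 11 of 73 replicate 1 peaks on chromosome 4 (15.1%) and 4 of 22 on Y (18.2%) overlapped one of replicate 2, against 51.7% over the arms.

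**Figure D1:**
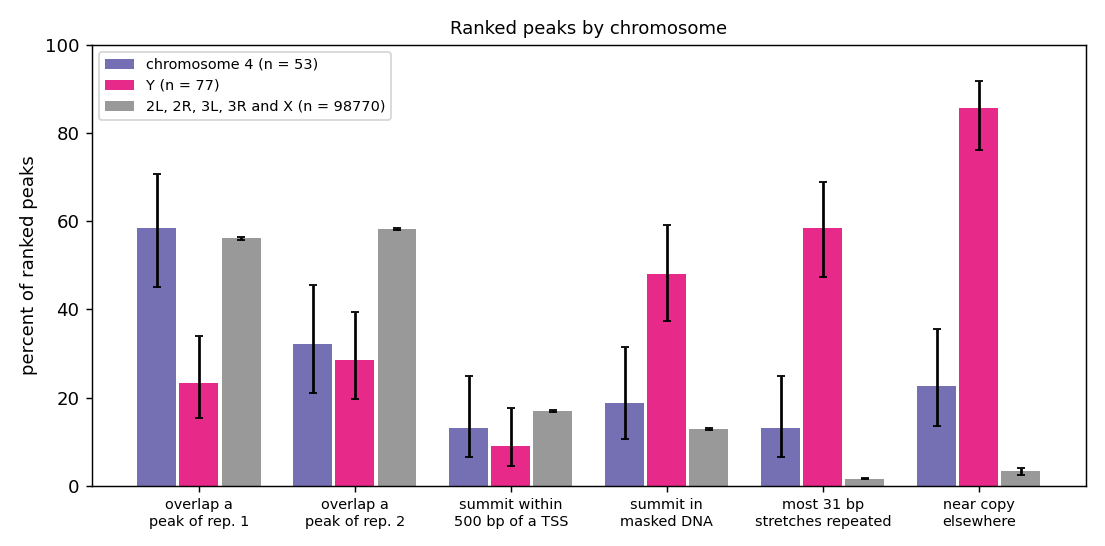
Percent of ranked peaks (vertical axis) with each of 6 properties on chromosome 4 (53 peaks), on Y (77 peaks) and on the 5 arms (98770 peaks, or every 50th of them, 1976, for near copies). Bars are shares and error bars are 95% Wilson intervals; chromosome 4 lies near the arms for replicate 1 and below them for replicate 2, and Y stands highest in the 3 repeat measures at the right.

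Where both replicates had a value, the median difference between them was smaller than its SD. Over the 8 such members of chromosome 4 replicate 1 exceeded replicate 2 by 0.57 on the log2 scale at the median (SD 0.74). Over the 3 of Y it did so by 0.13 (SD 0.21), against 0.05 (SD 0.81) over the arms. Values were matched by overlap of 1 bp, and not all of these members had a summit within 100 bp in both replicates. The members chr4:591877-592212 and chr4:592095-592430 also share the same replicate 1 peak (9.29). In the series-level list past the IDR threshold of 1%, 2 of the 53 chromosome 4 members were found (3.77%) and none of the 77 on Y, for which the Wilson interval reaches 4.75%, against 4.11% of the peaks of the arms. The conservative version of that list held 1 chromosome 4 member and no Y member. In replicate 1's own lists 4 of 73 chromosome 4 peaks passed the threshold (5.48%, against 4.285% over the arms). In those of replicate 2 5 of 35 did (14.3%, Wilson interval 6.26 to 29.4, against 4.53%). No Y peak passed in either replicate.

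The strongest site of chromosome 4 lay at the promoter of PlexA (FBgn0025741), which encodes a receptor for semaphorins, the guidance cues of growing axons. The peak chr4:1027216-1027378 had a signal of 251 in the series-level list, 117 in replicate 1 and 132 in replicate 2, and ranked 475 of all peaks. The transcription start site (TSS) of the gene lay 170 bp downstream of the summit, and the peak was in the thresholded lists of both replicates and in the conservative list. Both replicates gave it the highest value of any ranked peak on chromosome 4. A weaker member lay inside PlexA, in an intron 1220 bp downstream of a TSS (14.6), and neither replicate held it.

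The second site, chr4:424756-424875, had a signal of 163 and ranked 872. Replicate 1's own ranked list gave it 67.9, and that of replicate 2 had no overlapping peak. The 2 underlying peaks listed with it had 72.35 and 89.95, both above the value in replicate 1's own list. The labels do not say which reads they came from, or that they are peaks of the 2 replicates. They are therefore not read as signal in replicate 2. It was intergenic, 1239 bp upstream of lncRNA:CR43437, a long non-coding RNA gene whose own TSS lay 45 bp from the summit of a further member (16.6, with 16.3 in replicate 1). The site was in the thresholded list but in neither the conservative nor the other series-level ranked list. After it the signals dropped to 41.0 and less, so 2 of the 53 members stood far above the rest.

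Of the 53 chromosome 4 members, 32 (60.4%) lay inside 3 transcription factor genes: dati with 13, ey with 10 and zfh2 with 9. Together these genes cover 82516 bp, 6.12% of the chromosome. They were picked after the peaks had been seen, so the share is a description. In the lists of single replicates the same genes held 24 of 73 summits in replicate 1 (32.9%) and 16 of 35 in replicate 2 (45.7%). The other series-level ranked list, made from the same samples, gave 33 of 65 (50.8%).

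zfh2 (FBgn0004607, chr4:501810-540874, plus strand) encodes a large protein with zinc fingers and homeodomains that acts in development. Its strongest member lay in an intron at chr4:527919-528254, 26277 bp downstream of the TSS, with 37.3 in the series-level list, 30.7 in replicate 2 and no peak in replicate 1. A further member at its TSS, chr4:501626-501961, with the summit 16 bp upstream and so just outside the gene, had 29.4, with 14.8 in replicate 1 and 8.46 in replicate 2. The members at 4210 and 6006 bp into the gene had 23.4 and 22.5, each with a peak in replicate 2 (16.6 and 19.7) and none in replicate 1. Inside zfh2 replicate 2 held 5 of the 9 members and replicate 1 held 4, whereas inside dati and ey replicate 1 held more.

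dati (FBgn0262636, chr4:375640-395605, minus strand) encodes a zinc-finger protein of the nervous system. Its 13 members had signals between 4.86 and 30.05 with a median of 16.4, 7 of them in replicate 1 (10.7 to 21.4), 1 in replicate 2 (12.4) and none in both. The strongest, chr4:388242-388577, lay 88 bp upstream of the TSS of 1 of its transcripts, with 30.05 in the series-level list and 21.4 in replicate 1. Next came a member in a coding exon at chr4:390968-391303 (28.5, with 17.0 in replicate 1), then chr4:379365-379700 in an annotated INE-1 transposon of an intron (25.1, with 12.4 in replicate 2). The members at chr4:381928-382263 (24.1) and chr4:385168-385503 (21.3) had peaks of 15.04 and 18.3 in replicate 1.

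ey, eyeless (FBgn0005558, chr4:697689-721173, plus strand), is the Pax6 gene that directs eye development. Its 10 members had signals between 11.96 and 26.7 with a median of 21.6; 5 were in replicate 1, 1 of those also in replicate 2, and 5 in neither. The strongest lay in an intron at chr4:712776-713111 (26.7, with 19.3 in replicate 1), followed by chr4:711546-711881 (25.8) and chr4:703703-704038 (25.8), which neither replicate held. Of the next, chr4:701261-701596 (24.2) was in neither list, and chr4:700114-700449 (22.4) had 21.9 in replicate 1. The 1 member at an ey TSS, 298 bp upstream, had 11.96.

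**Figure D2:**
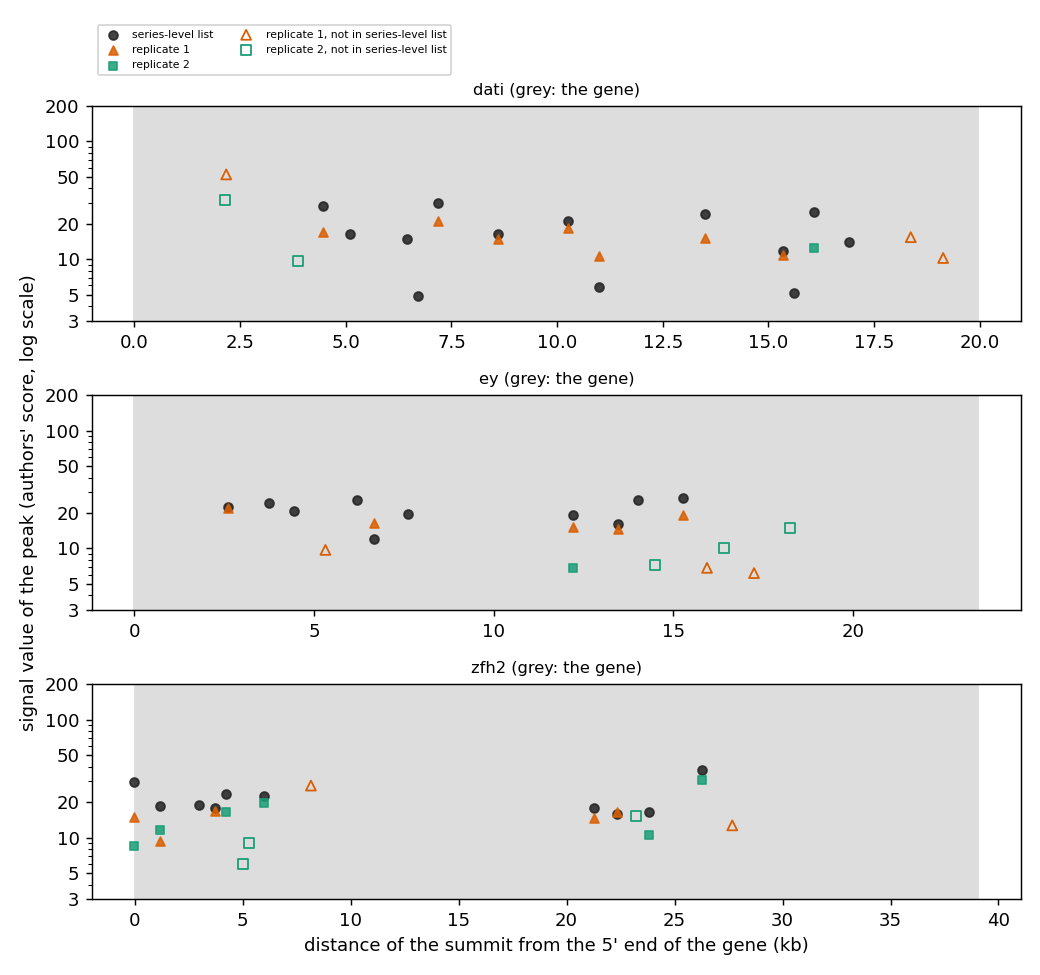
Signal of peaks (vertical, log scale) against the distance of their summit from the 5' end of dati, ey and zfh2 (horizontal, kb; grey, the gene). Filled symbols are members with their matching replicate values and open symbols replicate peaks that overlap no member; the highest open symbols in dati, 52.5 in replicate 1 and 31.7 in replicate 2, stand above every dati member.

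Apart from those genes and the HeT-A copies described further on, strong members lay in other genes and between genes. Asator, a kinase gene, had 33.8 at chr4:486411-486746 in an intron, with 23.2 in replicate 1 and none in replicate 2. Sox102F, of the SoxD family of transcription factors, had 31.1 at chr4:806123-806458 in an intron, with 21.8 in replicate 1 and 10.2 in replicate 2. An intergenic member in R1A1 and INE-1 transposon sequence at chr4:591877-592212 had 22.2, with 9.29 in replicate 1 and 16.3 in replicate 2. Of the 53 summits, 30 were classed as intron, 11 as intergenic, 7 as promoter (within 500 bp of a TSS) and 5 as coding exon. The promoter share was 13.2%, against 16.9% of the peaks of the arms, but the direction depended on the list. It was 18 of 73 in replicate 1's own list (24.7%, against 19.8% over the arms in that list) and 6 of 35 in that of replicate 2 (17.1%, against 18.7%). Members crowded together: 49 of 53 lay within 5000 bp of another, 6 neighbouring pairs overlapped, and 12 members shared an underlying peak with another.

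Most chromosome 4 genes had no site at their start. Of 80 protein-coding genes, 5 had a ranked summit within 500 bp of a TSS (6.25%): Mpv17, PlexA, dati, ey and zfh2. The arms had 9773 of 13865 such genes (70.5%). Among 15 listed transcription factors and DNA-binding regulators 3 had one, ey (11.96), zfh2 (29.4) and dati (30.05). The others, among them ci, the effector of Hedgehog signalling, pan, the effector of Wingless signalling, toy, the second Pax6 gene, sv, onecut and pho, had none in the series-level list. Of 17 listed ligands, receptors and signalling genes PlexA alone had one (251), and none did among 11 synapse, channel and cytoskeleton genes or 9 metabolism, translation and RNA genes.

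The replicates held chromosome 4 promoters that the series-level list lacked. At the Sox102F promoter replicate 1 had chr4:807396-807715 with 43.5 and replicate 2 chr4:807380-807699 with 44.9, with summits 209 and 193 bp upstream of a TSS. Both were in the thresholded lists of their replicates, yet neither series-level ranked list held a peak there. At dati a peak 22 bp upstream of another TSS had 52.5 in replicate 1 (chr4:393272-393591), and replicate 2 had 31.7 there; it was likewise missing from both series-level lists. Replicate 2 alone had 66.9 at the promoter of gw, a gene of microRNA silencing, at chr4:659988-660307. It also had 35.7 at chr4:982806-983125, 4477 bp upstream of fuss, a SKI/SNO family gene, and 35.2 at chr4:497770-498089, 3880 bp upstream of zfh2. The gw, fuss and zfh2 peaks were in the thresholded list of replicate 2, and the dati peak in that of replicate 1 only. These sites were picked after their values had been seen. Of the replicate peaks on chromosome 4, 41 of 73 in replicate 1 and 19 of 35 in replicate 2 overlapped no member (56.2% and 54.3%), against 13.6% and 14.7% of the arms' peaks in those lists that overlapped no series-level peak. In the replicates' own lists 10 of the 80 coding genes had a summit at a TSS in replicate 1 (12.5%, against 57.3% over the arms) and 5 in replicate 2 (6.25%, against 57.7%). Why the series-level list lacks them was not tested.

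At the far end of chromosome 4, 7 members lay in copies of HeT-A, the retrotransposon that, with related elements, forms fly telomeres in place of telomerase repeats. They fell within chr4:1278991-1318495 and had signals between 7.85 and 41.0 with a median of 19.2. The strongest, chr4:1280492-1280827, was the third of the chromosome, with 20.6 in replicate 2 and no peak in replicate 1. The next, chr4:1318160-1318495, had 25.6 and 13.4 in replicate 2. Of the 7, 5 overlapped a peak of replicate 2, 3 one of replicate 1 and 1 both, and in 5 of them most 31 bp stretches around the summit occurred again in the assembly. The 7 are not all separate sites. The members chr4:1278991-1279326 and chr4:1279247-1279582 overlap, share their underlying peaks and match the same replicate 1 peak (13.84). Likewise chr4:1304440-1304775 and chr4:1304690-1305025 overlap, share an underlying peak and match the same replicate 2 peak (15.62). Elsewhere in the assembly HeT-A carried 4 ranked summits in 10 annotated elements on X, 2 in the 1 element on 2R and none in the 1 element on 3L. Per 10 kb of element that was 1.58 on chromosome 4, against 2.11 on X and 3.29 on 2R. HeT-A was looked at after the peaks had been seen. Which copy the reads came from was not tested.

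**Figure D3:**
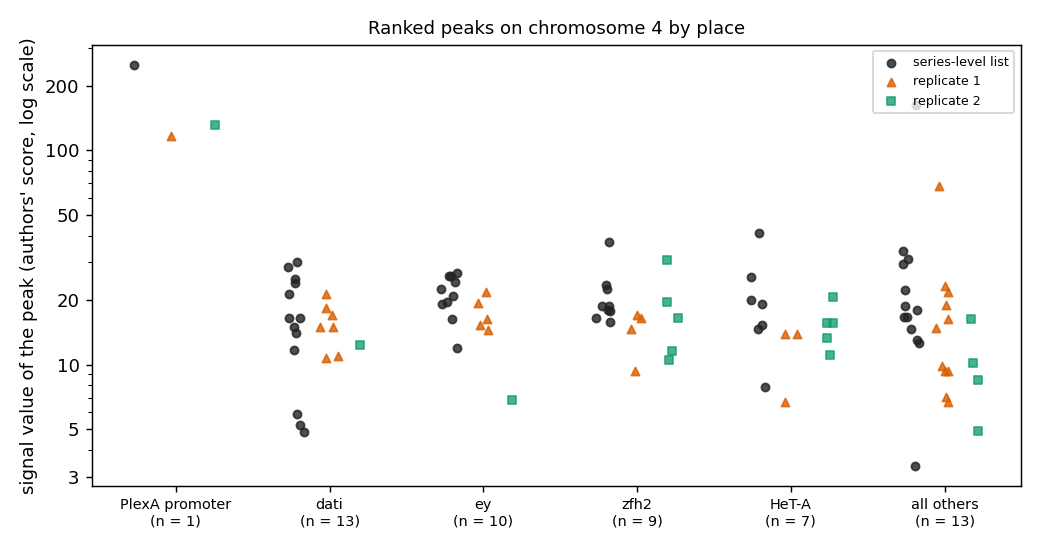
Signal of the 53 chromosome 4 members (vertical, log scale) by place (horizontal), with the values of the overlapping ranked peaks of replicate 1 and replicate 2. The PlexA promoter has 251, 117 and 132; the dati, ey, zfh2 and HeT-A members lie at 41.0 and less, and the high point among all others is the site near lncRNA:CR43437 at 163.

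The Y members were mostly intergenic, and most had a near copy elsewhere on the 7 chromosomes. Of 77 summits, 54 were intergenic, 15 in introns, 7 within 500 bp of a TSS (9.09%, against 16.9% over the arms) and 1 in a non-coding exon. The promoter share also turned between lists, with 1 of 22 in replicate 1's own list (4.55%, against 19.8% over the arms) and 7 of 30 in that of replicate 2 (23.3%, against 18.7%). Most 31 bp stretches around the summit occurred again in the assembly for 45 of 77 Y members (58.4%) and 7 of 53 chromosome 4 members (13.2%), against 1.62% of the peaks of the arms. Summits in repeat-masked sequence made up 48.1% on Y and 18.9% on chromosome 4, against 12.8% over the arms. Of the bases themselves, 49.6% of Y and 27.8% of chromosome 4 are masked. In an annotated transposon lay 2 of the 77 Y summits (2.60%) and 14 of the 53 on chromosome 4 (26.4%), against 0.919% over the arms. Annotated transposons cover 5.21% of Y and 24.8% of chromosome 4. A copy of at least 80% identity over at least 200 bp was found elsewhere on the 7 chromosomes for 66 of the 77 Y members (85.7%) and 12 of the 53 chromosome 4 members (22.6%), against 3.24% of every 50th peak of the arms. The Y members with copies had a median of 19 each, the best at 97.4% identity at the median, and for 35 of them the best copy was on Y itself. This search was added after the data had been seen. The share of all Y DNA with repeated stretches or copies was not counted, so these shares may belong to the chromosome and not to the sites. Of the 77 Y members, 41 lay within 5000 bp of another. On Y 9 neighbouring pairs overlapped, and 19 members shared an underlying peak with another.

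The signals of Y members with and without copies overlapped. The 66 with a copy had a median of 12.9, and the 11 without one a median of 9.48 but the highest single value, chrY:975731-976066, whose 31 bp stretches all occur again in the assembly though no copy of 200 bp was found on the 7 chromosomes. Of 54 Y members with a copy on the arms, 10 had a ranked peak at the best such copy. The arms hold 745 ranked peaks per Mb, and how often a stretch of that length meets one was not counted. The 10 are therefore not read as many or few. How the reads were divided among copies was not tested.

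The strongest Y member, chrY:975731-976066, had 45.5, with 29.99 in replicate 1 and no peak in replicate 2. It lay 4385 bp downstream of Su(Ste):CR42432, 1 of the Suppressor of Stellate repeats, which make small RNAs against the Stellate genes. Its 2 underlying peaks, 11.2 and 38.1, were unlike in size, and its IDR score was low, at 44. The second, chrY:787577-787912, in an annotated opus transposon, had 44.1, with 31.4 in replicate 2 and none in replicate 1; a 99.4% identical copy lies on 2L with no ranked peak. The third, chrY:874333-874668, 3271 bp upstream of Su(Ste):CR42422, was in both replicates, with 33.9 in the series-level list, 15.7 in replicate 1 and 18.2 in replicate 2. So the highest Y member backed by both replicates ranked 10950 of all peaks. The other such members, chrY:3259182-3259517 (23.4, with 11.9 and 10.9) and chrY:2650421-2650756 (16.2, with 10.3 and 9.15), were weaker.

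Across the first Su(Ste) cluster and the DNA around it, 18 members had a Su(Ste) gene as the nearest TSS, with signals between 2.78 and 45.5 and a median of 13.5; 5 were in replicate 1, 7 in replicate 2 and 7 in neither. The distance to that TSS reached 83485 bp, for the opus member, so nearest does not mean within the cluster, and the stretch was bounded after the positions had been seen. Named by the rule of the 20 highest, they include chrY:945404-945739 (19, with 16.4 in replicate 2), chrY:1041419-1041754 (16.8, with 12.1 in replicate 1) and chrY:855310-855645 (16.6, with 13.4 in replicate 2). In 14 of the 18 most 31 bp stretches were repeated. Some of the 18 overlapped a neighbour and shared an underlying peak with it.

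For 9 Y members HeT-A was the annotated transposon family that their matching stretches in the assembly met most often, and these are called HeT-A-like here. In each of the 9 it covered a minority of the stretches, between 3 of 29 and 3 of 8. That definition was settled after the data had been seen, as were the bounds chrY:2831217-2845791, within which 7 of them lay. These 9 had signals between 7.17 and 27.4 with a median of 17.4, 3 in replicate 1, 4 in replicate 2 and none in both. The strongest were chrY:2836505-2836840 (27.4, with 16.4 in replicate 2), chrY:2833488-2833823 (25.01, with 19.7 in replicate 2) and chrY:2838091-2838426 (19.3, with 17.0 in replicate 1). Below them came chrY:2832029-2832364 (17.8, with 5.93 in replicate 1), chrY:2845456-2845791 (17.4, with 13.1 in replicate 1) and chrY:2831217-2831552 (15.6, with 10.1 in replicate 2). No HeT-A element is annotated on Y in the annotation used, so the naming rests on the copies. By the same rule 1360, a DNA transposon, came first for 10 Y members, with between 1 of 51 and 1 of 1 of a member's stretches. The stretches counted include the member's own position. The 1 of 1 was chrY:3244681-3245016, for which no copy was found, so its only stretch was its own position.

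**Figure D4:**
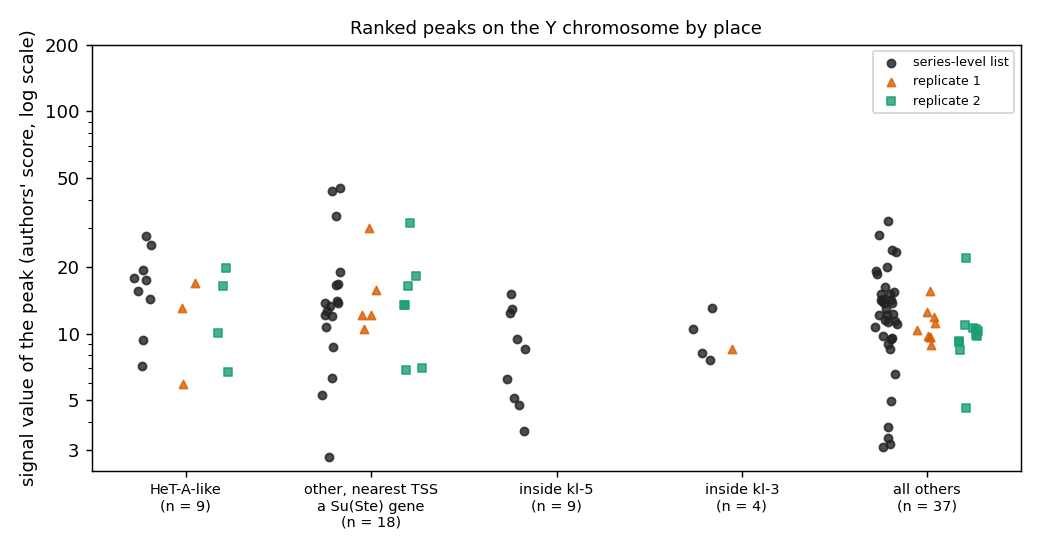
Signal of the 77 Y members (vertical, log scale) by place (horizontal), with overlapping ranked peaks of replicate 1 and replicate 2. The kl-5 column has no replicate points at all, and the highest members, 45.5 and 44.1, both have a Su(Ste) gene as the nearest TSS, the second of them 83485 bp away.

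Few protein-coding genes of Y held members, and kl-5 held most of those. The fertility genes kl-5 and kl-3 encode dynein heavy chains of the sperm tail. Inside kl-5, chrY:22250-137486, there were 9 members with signals between 3.65 and 15.1, none of which overlapped a ranked peak of either replicate. They are 11.7% of the Y members, in a gene that covers 3.14% of Y. Some of the 9 overlapped each other and shared an underlying peak. In replicate 1's own list 0 of 22 Y summits lay inside kl-5, and in that of replicate 2 1 of 30. The other series-level ranked list had 8 of 102. The gene was singled out by its count, so the share is a description. Inside kl-3, which covers 6.18% of Y, there were 4, between 7.62 and 13.1, with 1 in replicate 1 (8.56). PRY had 1 (9.48, in neither replicate), and Ppr-Y had 1 (12.3, with 11.2 in replicate 1). No member lay in kl-2, ORY, CCY, ARY, WDY, Pp1-Y1, Pp1-Y2, CG46191, CG46192 or CG45765.

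Of 23 Y protein-coding genes, 2 had a ranked summit within 500 bp of a TSS. FDY, a young Y gene derived from a chromosome 3 gene, carried chrY:3022574-3022909 with 19.1, and 12.5 in replicate 1, 453 bp downstream of its TSS. The 1 copy of this member, 97.0% identical over its 336 bp, lies on 3R and has no ranked peak. Mst77Y-7, from the multicopy Mst77Y family of sperm chromatin genes, had 8.95 and no peak in either replicate. At 4126 bp upstream of FDY lay chrY:3017995-3018330 (27.8, with 8.92 in replicate 1). Of the 20 highest, the others were the pseudogene CR46178 with chrY:3191195-3191530 (32.1, with 22.0 in replicate 2), chrY:2625629-2625964 (23.8, with 9.64 in replicate 1), chrY:288102-288437 (20.03, with 10.7 in replicate 2) and chrY:3288033-3288368 (18.6, in neither). Among listed Y coding genes 1 of 15 and among listed multicopy genes and repeats 2 of 32 had a ranked summit at a TSS; the 2 were Mst77Y-7 and Su(Ste):CR42426 (8.69, with 6.89 in replicate 2).

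Short elements were counted within 50 bp of the summits, and the share that stood farthest from that of the arms was the E-box on chromosome 4. GAGAG, the core of GAGA factor sites, was in 8 of 53 chromosome 4 members (15.1%) and 12 of 77 Y members (15.6%), against 12.5% over the arms. CANNTG, the E-box, was in 26.4% on chromosome 4 (Wilson interval 16.4 to 39.6) and 39.0% on Y, against 43.4% over the arms; in windows centred 300 bp to each side the shares were 34.0% on chromosome 4 and 31.8% on Y, against 41.2% over the arms. GATA was in 39.6% on chromosome 4 and 50.6% on Y, against 39.6% over the arms, and CGATA in 11.3% on chromosome 4 and 16.9% on Y, against 10.6%. CACACA was in 11.3% on chromosome 4 and 3.90% on Y, against 9.49%. TAATTA was in 1 member of each, CACGTG in 1 Y member, and TATCGATA, GGTCACACT and ATGCAAAT in none; on the arms each of those was in 4.86% or less. All were searched on both strands, and CGATA contains GATA.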

How the data were processed

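The deposited files are peak lists in narrowPeak-like form for dm6, per the labels and the deposited file names: a ranked and a thresholded list (IDR of at most 1%) of each replicate, and, for the series, 2 ranked lists and a thresholded list in a plain and a conservative form. The signal value and IDR score of each peak are scores deposited by the authors, made with an aligner and a caller not given in the sources used here. Neither reads nor the control were analysed here, and depth is unknown.

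The members and lists were chosen with earlier results of these data known. Peaks of 1 of the 2 series-level ranked lists on chromosomes 4 and Y were taken, in 1-based coordinates. A peak was in another list when 1 bp overlapped, and the value given is that of the peak with the nearest summit. TSSs, genes and transposons came from Ensembl release 115 (BDGP 6.54), and sequence and soft-masking from the RefSeq copy of dm6. Repeats were counted as 31 bp stretches of the 101 bp around a summit that occur elsewhere in the assembly, scaffolds included, on either strand; near copies were found with BLAST+ 2.17.0 on the 7 chromosomes. The rule for named sites took the 20 highest peaks of each chromosome, all in a thresholded list, listed genes with the highest signal at a TSS, and the 5 highest without a peak in 1 replicate. Of the listed symbols Thd1, ZIP102B and CG41561 were absent as spelled, and GckIII and rdgC are annotated on other chromosomes. Values were computed with Python 3.11.15, pandas 2.3.3 and numpy 2.4.6, and the overlap, distance and repeat steps were tested on simulated peaks. There is 1 group, so no test was made. Alternatives were other overlap rules, TSS distances, signal cuts, repeat measures, lists and leaving out a replicate.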

Additional observations from a re-analysis of the deposited data

How the results depend on the processing

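The 16 summary values were recomputed under the alternative settings, which gave 40 values within the spread (for counts, within 1.5 times), and 32 that moved. The spread is the SD between the replicates' own lists, or, for overlap with a replicate, the width of the Wilson interval to 1 side. With a replicate left out, the other replicate's own list was used. On chromosome 4 the share of summits within 500 bp of a TSS was 17.1% to 24.7% with a replicate left out, 7.55% at 250 bp and 26.4% at 1000 bp. The median signal over that of the arms was 1.076 to 1.08 with a replicate left out, 1.07 in the other ranked list and 0.9504 among peaks above the median of the list, the only setting in which it fell under 1. The masked share was 21.9% to 25.7% with a replicate left out, 12.9% among peaks above the median, 15.1% by the majority of the bases around the summit and 13.2% by repeated stretches. Thresholded members were 1 in the conservative list, and 1 to 2 with a replicate left out. That last count is an exception, as it still involved a list made from both replicates. Wholly within replicate 1's own lists 4 of 73 chromosome 4 peaks were thresholded, and within those of replicate 2 5 of 35. With a replicate left out, listed genes with a summit at a TSS were 5 to 8.

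On Y there were 5.999 to 8.18 peaks per Mb with a replicate left out, 27.8 in the other list, 4.09 above the median and 22.6 per known Mb. Overlap with replicate 1 was 53.3% and with replicate 2 53.3% above the median, and 17.6% with replicate 2 in the other list. With a replicate left out, 4.55% to 23.3% of summits were at a TSS, 43.3% to 63.6% were masked and 1 to 2 listed genes had a summit; the genes were 0 at 250 bp and 5 at 1000 bp. The median over that of the arms was 0.794 to 0.833 with a replicate left out, 0.629 in the other list and 0.938 above the median. Leaving out a replicate cannot be defined for the overlap with replicates. No paired analysis was possible because there is 1 group. The causes were not tested. Depth is unknown, and 2 replicates limit the precision of every share.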

Other observations

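The other series-level ranked list held 65 peaks on chromosome 4 and 102 on Y, of which 20 (30.8%) and 54 (52.9%) overlapped none of the members described above, while 8 of 53 (15.1%) and 29 of 77 members (37.7%) overlapped none of its peaks. Over the arms 17.5% of the peaks of that list and 14.7% of those of the main one had no counterpart in the other. Of its 20 further chromosome 4 peaks, the strongest lay around Sox102F, at chr4:798661-798996 (37.3), chr4:804627-804962 (27.7) and chr4:801130-801465 (24.1), and the next inside ey at chr4:713917-714252 (23.6). Replicate 1 had a ranked peak at 16.4 at the site of 37.3 (chr4:798654-798973).

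Other replicate peaks of chromosome 4 that overlap no member include 42.5 in replicate 1 at chr4:489422-489741, 588 bp upstream of Asator, and 37.2 in replicate 2 at chr4:1318912-1319231, among the HeT-A copies. Neither was in the other replicate's list.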
